A study of Mus musculus with 8 samples.

Results

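Iron handling genes were followed in bone marrow-derived dendritic cells (BMDCs), the cells that grow from mouse bone marrow in GM-CSF. The 9 genes were chosen by name from textbook roles in storing, importing and exporting iron; the rule used none of their values, although earlier results of these data were known when it was made: the ferritin subunits *Fth1* and *Ftl1*, the ferritin receptor *Ncoa4*, the transferrin receptor *Tfrc*, the ferric reductase *Steap3*, the metal transporters *Slc11a2* and *Slc11a1*, the iron exporter *Slc40a1* and the siderophore-binding protein *Lcn2*. All 9 were among the 47937 gene IDs with counts, and all passed the filter on low counts in each comparison. Cultures came from 3xGrk-/- mice, which combine *Vav*-iCre with floxed *Grk2* and *Grk6* and lack *Grk3* in the germline, and from Cre-negative WT controls, adult animals on a C57BL6/J background. Because *Vav*-iCre acts in early blood precursors, any blood cell type in a 3xGrk-/- culture descends from such precursors, and GM-CSF cultures hold dendritic cells beside macrophages. Each genotype was left unstimulated or received 20 ng/ml LPS, a bacterial membrane component that activates myeloid cells, for 24 h, with 2 libraries for each of the 4 groups. The study's methods call the RNA isolations of a group technical replicates, so p-values measure the technical spread between these libraries and not that between animals or cultures.

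Cells take up iron bound to transferrin through the transferrin receptor, reduce it in endosomes and carry it into the cytosol, where ferritin stores what is not used and ferroportin (*Slc40a1*) releases the surplus. Iron regulatory proteins tune this system: when iron is scarce they bind short hairpins called iron-responsive elements, blocking translation from messages with the element in the 5′ UTR and protecting the *Tfrc* message, which carries several in its 3′ UTR. Macrophages recycle iron from red cells, and myeloid cells hold iron back from microbes through *Slc11a1* in the phagosome and through secreted *Lcn2*.

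The hairpins are shown because *Fth1*, *Ftl1*, *Slc40a1* and *Tfrc* hold them. The genes were chosen from textbook roles in iron handling, so the share with a match is not independent of that choice. Messages of GENCODE M21 on GRCm38 were searched on the sense strand for a 27-base stretch with a bulged C, a stem of 5 paired bases, a loop of CAGTGN and a lower stem with at least 3 of 5 pairs. A match was found in these 4 of the 9 genes, not in *Ncoa4*, *Steap3*, *Slc11a2*, *Slc11a1* or *Lcn2*, and in 95 of 21877 protein-coding genes (0.434%). The capitals mark the bulged C and the 6-base loop.
*Fth1*, 5′ UTR, chr19:9982733-9982759, plus strand: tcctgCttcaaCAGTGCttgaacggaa
*Ftl1*, 5′ UTR, chr7:45459780-45459806, minus strand: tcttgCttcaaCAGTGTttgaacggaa
*Slc40a1*, 5′ UTR, chr1:45925466-45925492, minus strand: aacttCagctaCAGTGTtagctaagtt
*Tfrc*, 3′ UTR, chr16:32631220-32631246, plus strand: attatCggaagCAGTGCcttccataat
*Tfrc*, 3′ UTR, chr16:32631599-32631625, plus strand: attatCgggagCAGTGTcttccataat
*Tfrc*, 3′ UTR, chr16:32631664-32631690, plus strand: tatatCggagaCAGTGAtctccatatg
*Tfrc*, 3′ UTR, chr16:32631711-32631737, plus strand: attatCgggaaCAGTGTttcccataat
The elements of *Fth1* and *Ftl1* differed at 2 of 27 positions. The search allows no extra bulge in the upper stem, as the known element in the 3′ UTR of *Slc11a2* has, so that the lack of a match does not show that a gene lacks an element. A match is a likeness of letters and not a measured binding site, and the libraries measured RNA, not translation.

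Libraries held 4713305 to 6933358 counts. *Grk2* was lower in 3xGrk-/- than in WT by 1.11 without and 1.89 with LPS on the log2 scale, *Grk6* by 1.19 and 1.54, and *Grk3* by 0.36 and 0.42, all called in edgeR's quasi-likelihood test. *Grk3* RNA thus remained at a mean of 264.5 CPM in unstimulated 3xGrk-/- against 338 CPM in WT, and counts over the whole gene do not show whether the deleted part is missing, so that they do not check its germline loss. *Itgax*, which encodes the integrin CD11c, was counted in every library. Its counts were 4985 and 6716 in unstimulated WT and 7328 and 6157 in unstimulated 3xGrk-/-. LPS-stimulated libraries held 348 and 458 in WT and 1851 and 2120 in 3xGrk-/-. The study describes macrophage-like cells of such cultures as CD11c-positive too, so this gene does not mark dendritic cells alone. Replicate 2 of the LPS-stimulated 3xGrk-/- group stood apart in *Gm42418*, a gene that overlaps ribosomal RNA, with 149727 counts against 26853 in replicate 1. Values below are counts per 1000000 counts of the library (CPM), with TMM scaling over all 8 libraries, and a gene was called at a Benjamini-Hochberg adjusted p under 0.05. In bulk RNA, fewer cells of a type and less RNA per cell cannot be told apart.

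Unstimulated 3xGrk-/- BMDCs held more RNA of both ferritin subunits, of *Slc11a1*, *Slc11a2*, *Steap3* and *Lcn2*, and less of *Tfrc* and *Slc40a1*, than WT. Thus 8 of the 9 genes were called, 6 higher and 2 lower, where 44.7% of the 12000 genes tested were called, 22.1% higher and 22.7% lower. Of the 9 genes, 5 were called with a change of 1 or more log2 units, as were 12.0% of all genes tested, and 8 had no overlap between the genotypes, as had 69.2% of all genes. The median log2 fold change was 0.56 over the 9 genes and close to 0 over all genes. With LPS, all 8 genes called of the 9 were higher in 3xGrk-/- (48.6% of 11830 genes tested were called, 24.7% higher). Of the 9 genes, 6 were called with a change of 1 or more log2 units, against 16.8% of all genes, and 8 had no overlap between the genotypes, against 72.6%. The median over the 9 was then 1.79 against -0.01 over all genes. With scaling by library size alone, the share of calls that were higher fell from 49.3% to 35.8% without LPS, and from 50.7% to 40.9% with LPS; the members called kept their directions. These counts rest on the small spread between libraries: with a fixed biological coefficient of variation of 0.4, edgeR called 4 of the 9 without LPS and 5 with LPS.

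**Figure D1:**
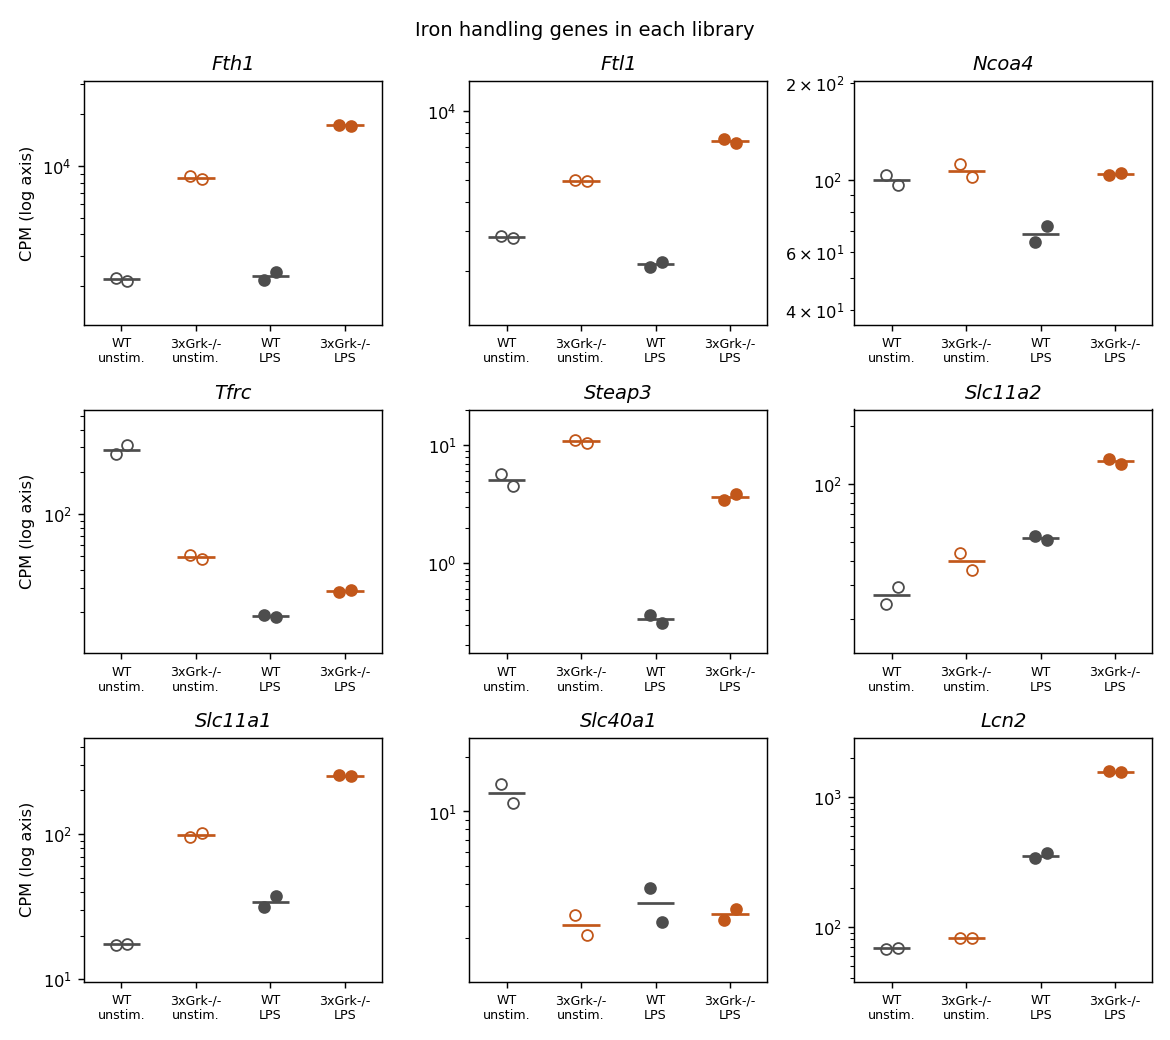
CPM on a log axis for the 9 iron handling genes, with 1 point per library and a bar at the mean of the 2 libraries of each group. *Fth1* lay at 2150 to 2411 CPM in both WT groups and at 8392 to 17324 CPM in 3xGrk-/-, and *Tfrc* was at 268 and 309.9 CPM in unstimulated WT and at 51.1 CPM or less in the other groups.

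*Fth1* (ENSMUSG00000024661, chr19:9980598-9985098) encodes the ferritin heavy chain, the subunit that oxidises iron for storage. The 2 libraries had 2234 and 2150 CPM in unstimulated WT, 8736 and 8392 CPM in 3xGrk-/- without LPS, 2168 and 2411 CPM in LPS-stimulated WT, and 17324 and 17112 CPM in LPS-stimulated 3xGrk-/- cells. The genotypes did not overlap with or without LPS, whereas the WT libraries with and without LPS did. *Fth1* was 3.90-fold higher in 3xGrk-/- without LPS (log2 1.97, SE 0.0239, edgeR adjusted p too small to be told from 0) and 7.52-fold higher with LPS (log2 2.91, SE 0.0497, edgeR adjusted p = 1.12e-20). It took 0.238% to 0.249% of all counts in unstimulated WT and 1.52% to 1.57% in LPS-stimulated 3xGrk-/- libraries, and ranked 5 among all genes by total counts.

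*Ftl1* (ENSMUSG00000050708, chr7:45457944-45459884) encodes the ferritin light chain, which favours the mineral core. It had 2850 and 2787 CPM in unstimulated WT, 4997 and 4935 CPM in 3xGrk-/- without LPS, 2089 and 2183 CPM in LPS-stimulated WT, and 7535 and 7236 CPM in LPS-stimulated 3xGrk-/- cells. All 4 groups were apart. The difference between genotypes was 1.76-fold without LPS (log2 0.82, SE 0.0250, edgeR adjusted p = 8.64e-227) and 3.45-fold with LPS (log2 1.79, SE 0.0475, edgeR adjusted p = 1.05e-17).

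The heavy chain thus differed more between genotypes than the light chain, and the ratio of the subunits changed. Per kilobase of annotated exon, the ratio of *Fth1* to *Ftl1* was 0.303 and 0.298 in unstimulated WT, 0.675 and 0.657 in unstimulated 3xGrk-/-, 0.401 and 0.427 in LPS-stimulated WT, and 0.888 and 0.914 in LPS-stimulated 3xGrk-/- libraries. Both 3xGrk-/- groups had higher ratios than both WT groups, with no overlap, and the ratio depends on the exon lengths used, while its change between groups does not. Ferritin has gene copies that could share its reads. Of 14 other genes with ferritin symbols, not all of them near-identical, 10 had no count in any library. The most counted, *Ftl1-ps1*, had 37 to 206. How reads that fit several copies were counted is not given, so low counts on copies do not show that no reads were shared.

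*Ncoa4* (ENSMUSG00000056234, chr14:32159865-32179855) encodes the receptor that delivers ferritin to lysosomes so that its iron can be released. Its levels were 103 and 96.9 CPM in unstimulated WT, 112 and 102 CPM in 3xGrk-/- without LPS, 64.7 and 72.3 CPM in LPS-stimulated WT, and 104 and 105 CPM in LPS-stimulated 3xGrk-/- cells. The genotypes overlapped without LPS (log2 0.11, 95% interval -0.02 to 0.23, edgeR adjusted p = 0.172) and were apart with LPS (log2 0.60, SE 0.0839, edgeR adjusted p = 3.83e-06).

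*Tfrc* (ENSMUSG00000022797, chr16:32608920-32632794) encodes the transferrin receptor, through which cells import iron and which dividing cells make in large amounts. It had 268 and 309.9 CPM in unstimulated WT, 51.1 and 47.7 CPM in 3xGrk-/- without LPS, 19.2 and 18.4 CPM in LPS-stimulated WT, and 27.9 and 29.0 CPM in LPS-stimulated 3xGrk-/- cells. Unstimulated WT was the highest group and LPS-stimulated WT the lowest, with both 3xGrk-/- groups between them. Without LPS *Tfrc* was 5.88-fold lower in 3xGrk-/- than in WT (log2 -2.56, SE 0.0597, edgeR adjusted p too small to be told from 0), and with LPS it was higher (log2 0.60, SE 0.132, edgeR adjusted p = 0.000693). It was the 1 member called in opposite directions between the 2 stimulations. Beside it, the summed level of 16 cell division genes was 1251 to 1257 CPM in unstimulated WT, 366 to 371 CPM in unstimulated 3xGrk-/-, 288 to 304 CPM in LPS-stimulated WT and 240 to 241 CPM in LPS-stimulated 3xGrk-/- libraries. All 16 of these genes were lower in 3xGrk-/- without LPS and 12 of 16 with LPS, where *Tfrc* was higher; their part in the *Tfrc* result was not tested. In 14 erythroid marker genes, 9 or 10 had no count in a group, and the list summed to 5.17 to 21.003 CPM.

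*Steap3* (ENSMUSG00000026389, chr1:120190757-120272705) encodes the reductase that prepares endosomal iron for transport. It was scarce, with 30 and 32 counts in unstimulated WT, 75 and 60 in unstimulated 3xGrk-/-, 2 and 2 in LPS-stimulated WT, and 19 and 24 in LPS-stimulated 3xGrk-/- libraries. Each 3xGrk-/- pair was above its WT pair. Without LPS the log2 fold change was 1.11 (SE 0.218, edgeR adjusted p = 1.59e-06). With LPS, 43 counts stood against 4, a ratio of 11.0 with an exact 95% interval of 4.01 to 42.3 that covers counting error only (edgeR adjusted p = 1.21e-05).

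*Slc11a2* (ENSMUSG00000023030, chr15:100387898-100425072) encodes the ferrous iron transporter DMT1 of endosomes and the gut. It had 24.01 and 29.5 CPM in unstimulated WT, 43.7 and 36.1 CPM in 3xGrk-/- without LPS, 53.8 and 51.4 CPM in LPS-stimulated WT, and 135 and 127 CPM in LPS-stimulated 3xGrk-/- cells. All 4 groups were apart. The genotype difference was a log2 fold change of 0.56 without LPS (SE 0.110, edgeR adjusted p = 1.33e-06) and 1.32 with LPS (SE 0.0831, edgeR adjusted p = 2.31e-11).

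*Slc11a1* (ENSMUSG00000026177, chr1:74375195-74386062) encodes NRAMP1, which pumps divalent metals out of the phagosome. Its levels were 17.3 and 17.6 CPM in unstimulated WT, 95.7 and 102 CPM in 3xGrk-/- without LPS, 31.3 and 37.2 CPM in LPS-stimulated WT, and 255 and 249.9 CPM in LPS-stimulated 3xGrk-/- cells. Even LPS-stimulated WT stayed below unstimulated 3xGrk-/- cells. The gene was 5.64-fold higher in 3xGrk-/- without LPS (log2 2.50, SE 0.0972, edgeR adjusted p = 1.66e-141) and 7.33-fold higher with LPS (log2 2.87, SE 0.0853, edgeR adjusted p = 6.63e-17). In counts, not scaled by length, *Slc11a1* stood to *Slc11a2* at 0.582 to 0.724 in the 4 WT libraries and at 1.89 to 2.84 in the 4 3xGrk-/- libraries. Macrophage markers were also higher in 3xGrk-/- as a sum: the 15 genes of that list summed to 2560 to 2585 CPM in unstimulated WT, 10346 to 10436 CPM in unstimulated 3xGrk-/-, 883 to 913 CPM in LPS-stimulated WT and 11783 to 11926 CPM in LPS-stimulated 3xGrk-/- libraries. *Lyz2* was the most abundant gene of this list in all 4 groups. In 3xGrk-/-, 10 of the 15 were higher and 4 lower without LPS, and all 15 were higher with LPS. Upon LPS, while *Slc11a1* rose in both genotypes, the list was called within WT with 3 genes higher and 11 lower, and within 3xGrk-/- 6 were higher and 4 lower. Of 17 dendritic cell markers, 16 were tested without LPS, with 5 higher and 10 lower in 3xGrk-/-, and 15 with LPS, with 2 higher and 13 lower. The 15 eosinophil, mast cell and basophil markers summed to 1290 to 1361 CPM in WT against 98.8 to 105 CPM in 3xGrk-/- without LPS, and to 1181 to 1283 against 108 to 110.5 CPM with LPS. A list of 14 lymphocyte and stromal markers summed to 16.0 to 16.1 CPM in WT against 10.7 to 11.9 CPM in 3xGrk-/- without LPS, and to 15.6 to 20.8 against 135 to 146 CPM with LPS, where *Dcn* was the most abundant. The part of these cell type differences in the iron gene results was not tested.

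*Slc40a1* (ENSMUSG00000025993, chr1:45908068-45926523) encodes ferroportin, the exporter that hepcidin closes. It had 14.1 and 11.2 CPM in unstimulated WT, 2.69 and 2.08 CPM in 3xGrk-/- without LPS, 3.80 and 2.47 CPM in LPS-stimulated WT, and 2.54 and 2.91 CPM in LPS-stimulated 3xGrk-/- cells. Unstimulated WT was above the other 3 groups, which overlapped with one another. The log2 fold change between genotypes was -2.36 without LPS (SE 0.251, edgeR adjusted p = 4.23e-20) and -0.17 with LPS (95% interval -0.87 to 0.52, edgeR adjusted p = 0.714). At 12 to 21 counts per library in those 3 groups, a small difference with LPS was not detectable.

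*Lcn2* (ENSMUSG00000026822, chr2:32384633-32388252) encodes lipocalin-2, which captures bacterial siderophores and so keeps their iron from microbes. It had 67.8 and 68.8 CPM in unstimulated WT, 81.2 and 82.3 CPM in 3xGrk-/- without LPS, 338 and 367 CPM in LPS-stimulated WT, and 1578 and 1540.5 CPM in LPS-stimulated 3xGrk-/- cells. The groups did not overlap, and most of the difference between genotypes lay in the stimulated cells. Without LPS the log2 fold change was 0.26 (SE 0.0744, edgeR adjusted p = 0.00183), a call that DESeq2 did not make (adjusted p = 0.0923). With LPS *Lcn2* was 4.42-fold higher in 3xGrk-/- (log2 2.14, SE 0.0589, edgeR adjusted p = 1.86e-17). *Lcn2* is also a granule gene of neutrophils. The 17 neutrophil markers summed to 1133 to 1193 CPM in unstimulated WT, 1721 to 1759 CPM in unstimulated 3xGrk-/-, 545 to 615 CPM in LPS-stimulated WT and 704 to 732 CPM in LPS-stimulated 3xGrk-/- libraries. The sum was higher in 3xGrk-/-, but more of its genes were called lower than higher: without LPS 3 of 17 were higher and 8 lower, and with LPS 2 of the 16 tested were higher and 11 lower. The sum in 3xGrk-/- was led by *Mmp8* and *Mmp9*. Their part in the *Lcn2* result was not tested.

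**Figure D2:**
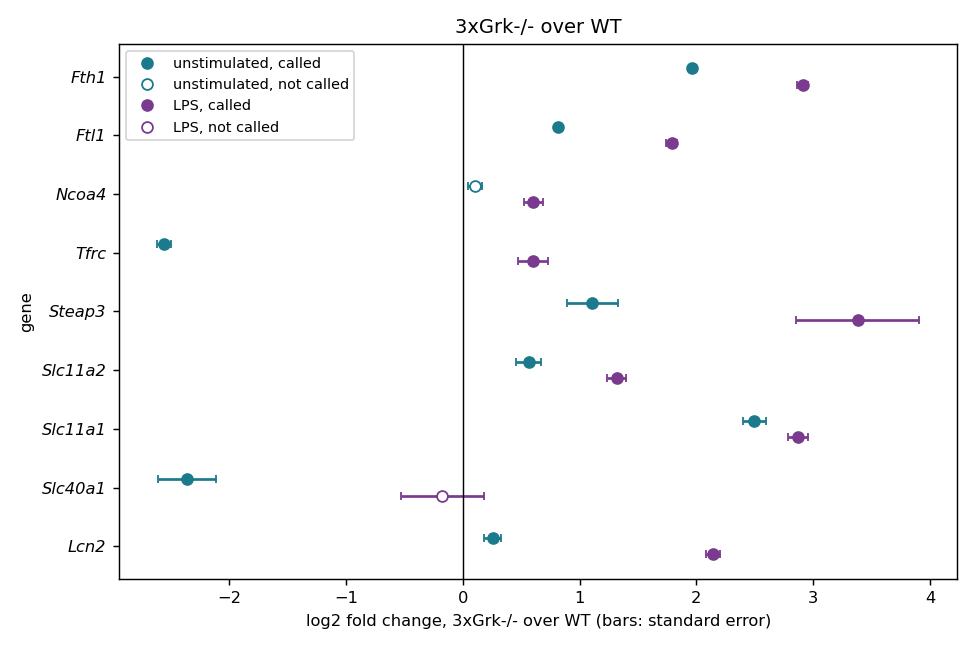
Log2 fold change of 3xGrk-/- over WT for each of the 9 genes, without and with LPS, with bars for the standard error and open circles for values not called. *Tfrc* lay at -2.56 without and 0.60 with LPS, and *Fth1*, *Ftl1* and *Lcn2* lay further to the right with LPS than without. The *Steap3* value with LPS rests on 4 WT counts.

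The response to LPS was read within each genotype. Unstimulated and stimulated libraries stand in separate tables, so that any difference in how the tables were made and the effect of LPS cannot be told apart. The comparisons below share their libraries with those above. In WT, 8 of the 9 genes were called, with 3 higher and 5 lower after LPS, where 60.3% of 12541 genes tested were called, 29.5% higher and 30.8% lower, and 8 had no overlap between libraries with and without LPS, as had 78.3% of all genes. In 3xGrk-/-, 7 were called, with 5 higher and 2 lower, where 55.4% were called, 28.0% higher and 27.4% lower, and 7 had no overlap, against 77.6% of all genes. These counts too rest on the small spread between libraries. With a fixed biological coefficient of variation of 0.4, edgeR called 4 of the 9 in WT and 1 in 3xGrk-/-. When libraries were scaled by their size alone, the median of all genes moved by -0.21 in WT and by -0.22 in 3xGrk-/- on the log2 scale, and the share of calls that were higher fell from 49.0% to 31.1% and from 50.5% to 30.2%.

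*Fth1* did not pass the test in WT (log2 0.06, 95% interval -0.01 to 0.14, edgeR adjusted p = 0.174) and rose in 3xGrk-/- by 1.01 on the log2 scale (SE 0.0392, edgeR adjusted p = 1.07e-18). Its WT value was -0.15 with library size alone (edgeR adjusted p = 0.00147) and 0.14 without replicate 1 of LPS-stimulated WT (edgeR adjusted p = 1.38e-06), so its direction in WT is not settled by these libraries. *Ftl1* fell by 0.40 in WT (SE 0.0369, edgeR adjusted p = 2.1e-10) and rose by 0.57 in 3xGrk-/- (SE 0.0367, edgeR adjusted p = 1.09e-13). *Ncoa4*, the ferritin receptor, fell by 0.54 in WT (SE 0.0782, edgeR adjusted p = 8.43e-07), and its value in 3xGrk-/- was -0.04 (95% interval -0.18 to 0.10, edgeR adjusted p = 0.658). With library size alone that value was -0.26 and was called (edgeR adjusted p = 0.00349).

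The uptake genes *Tfrc* and *Steap3* fell in both genotypes. *Tfrc* dropped by 3.95 on the log2 scale in WT (SE 0.0912, edgeR adjusted p = 8.04e-24) and by 0.80 in 3xGrk-/- (SE 0.105, edgeR adjusted p = 2.33e-07). *Steap3* went from 62 to 4 counts in WT, a ratio of 15.0 with an exact 95% counting interval of 5.57 to 56.8 (edgeR adjusted p = 6.81e-08), and fell by 1.55 in 3xGrk-/- (SE 0.234, edgeR adjusted p = 1.96e-06). Of the 16 cell division genes, 15 were called lower upon LPS in WT (median -2.99) and 13 in 3xGrk-/- (median -1.13), and their part in the fall of *Tfrc* was not tested. The ratio of *Fth1* to *Tfrc* counts, storage over uptake and not scaled by length, was 8.33 and 6.94 in unstimulated WT against 113 and 131 in LPS-stimulated WT libraries. In 3xGrk-/- it was already 171 and 176 without LPS, and 619.9 and 591 with it.

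The transporters *Slc11a1* and *Slc11a2* rose in both genotypes. *Slc11a1* rose by 0.98 in WT (SE 0.116, edgeR adjusted p = 3.14e-08) and by 1.35 in 3xGrk-/- (SE 0.0671, edgeR adjusted p = 3.15e-16). *Slc11a2* rose by 0.95 in WT (SE 0.110, edgeR adjusted p = 1.81e-08) and by 1.71 in 3xGrk-/- (SE 0.0905, edgeR adjusted p = 1.43e-15). The exporter *Slc40a1* fell by 2.01 in WT (SE 0.247, edgeR adjusted p = 5.48e-08), while in 3xGrk-/-, where it was low from the start, its value was 0.18 (95% interval -0.54 to 0.91, edgeR adjusted p = 0.694) and -0.032 with library size alone. *Lcn2* had the largest rise of the 9 genes in both genotypes, 5.16-fold in WT (log2 2.37, SE 0.0596, edgeR adjusted p = 5.38e-23) and 19.1-fold in 3xGrk-/- (log2 4.25, SE 0.0590, edgeR adjusted p = 6.24e-29).

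**Figure D3:**
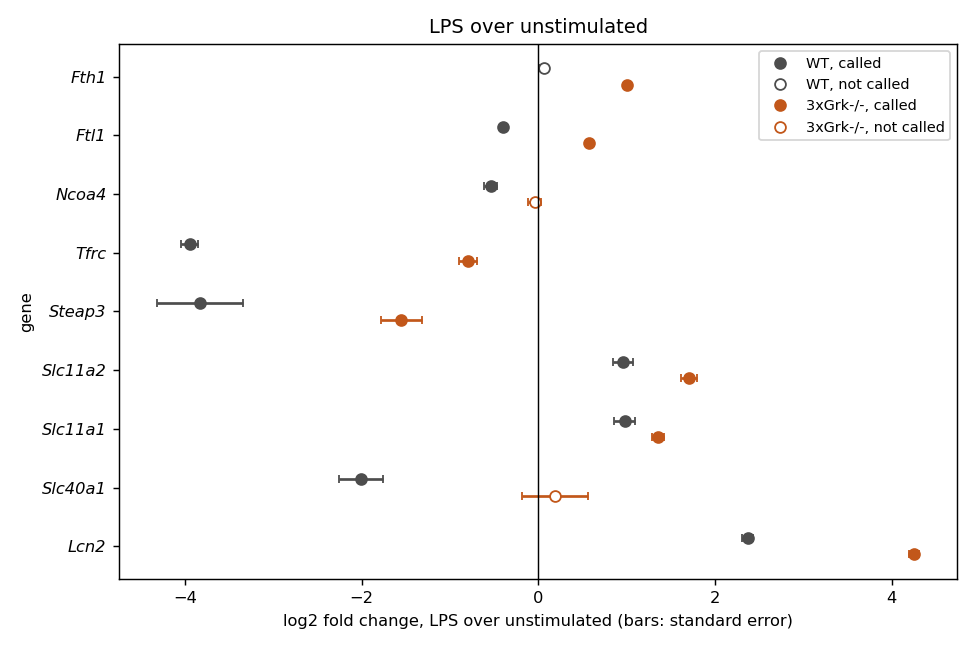
Log2 fold change of LPS-stimulated over unstimulated cells for the 9 genes in WT and in 3xGrk-/-, with bars for the standard error and open circles for values not called. For every gene the 3xGrk-/- value lay to the right of the WT value. The *Steap3* value in WT rests on 4 stimulated counts.

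The difference between the 2 responses was tested as an interaction of genotype and LPS over all 8 libraries. All 9 genes were called with a higher value in 3xGrk-/-, where 32.5% of 12541 genes were called, 16.5% higher. DESeq2 called 8 of the 9. A fixed biological coefficient of variation of 0.1 left 7 called, and of 0.4 left 1. The median over the 9 was 0.97 on the log2 scale against 0.01 over all genes. Other lists held like values: of 15 macrophage markers 14 were called higher and 1 lower (median 1.72), and of 16 cell division genes 11 were higher (median 1.02), whereas of 81 other iron genes 17 were higher, 9 lower and 55 not called. Their part in the members' result was not tested. The interaction was largest for *Tfrc* at 3.15 (SE 0.149, edgeR adjusted p = 9.79e-16), which fell less in 3xGrk-/-, and smallest for *Slc11a1* at 0.38 (SE 0.137, edgeR adjusted p = 0.0358). The *Slc11a1* call was not made by DESeq2 (adjusted p = 0.132) and was lost in 6 of the 8 fits that left out 1 library, where the value was 0.26 to 0.51. For *Fth1* it was 0.95 (SE 0.0553, edgeR adjusted p = 9.1e-14) and for *Ftl1* 0.97 (SE 0.0520, edgeR adjusted p = 1.31e-14). *Lcn2* had 1.89 (SE 0.0830, edgeR adjusted p = 1.89e-16).

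Levels of different genes were compared per kilobase of annotated exon. In unstimulated WT the order was *Ftl1* at 2103, *Fth1* at 632, *Tfrc* at 46.7, *Lcn2* at 26.0, *Ncoa4* at 10.7, *Slc11a1* at 4.72, *Slc11a2* at 4.21, *Slc40a1* at 1.41 and *Steap3* at 0.892 CPM per kilobase. In LPS-stimulated 3xGrk-/- cells *Ftl1* stood at 5511 and *Fth1* at 4963, followed by *Lcn2* at 594, *Slc11a1* at 68.1, *Slc11a2* at 20.6, *Ncoa4* at 11.1, *Tfrc* at 4.60, *Steap3* at 0.642 and *Slc40a1* at 0.303. The receptor *Tfrc* thus stood after the ferritins in the first order and after *Ncoa4* in the second. Summed over the 9 genes, the members took 5475 to 5585 CPM in unstimulated WT, 13710 to 14132 CPM in unstimulated 3xGrk-/-, 4769 to 5144 CPM in LPS-stimulated WT and 26406 to 26964 CPM in LPS-stimulated 3xGrk-/- libraries, most of it ferritin.

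For the 2 members with the widest range of group means on the scale of log2(CPM + 0.5), an offset that narrows the range of the scarce *Steap3*, the genes with the most similar profile were taken as a description, by Pearson correlation on that scale over the 8 libraries, which share the same 4 groups. *Lcn2* was followed by *B2m* (0.9991), *Rtp4* (0.9988), *Cmpk2* (0.9987), *Tor3a* (0.998) and *Syt7* (0.9979). *Tfrc* was followed by *Slc17a8* (0.9959), *Cd300lg* (0.9948), *Ncapg2* (0.9948), *Sept3* (0.9921) and *Mcm5* (0.9918), the last of which encodes part of the replicative helicase.

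The other genes of iron and heme handling were read from a list of 102, of which 96 had counts. Without LPS, 76 were tested, with 21 higher and 10 lower in 3xGrk-/- and a median log2 fold change of 0.10, and with LPS 81 were tested, with 32 higher and 12 lower and a median of 0.12. The shares called stand against the 44.7% and 48.6% of all genes given above.

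Of 24 heme genes, 20 were tested without LPS, with 7 higher and 4 lower, and 21 with LPS, with 13 higher and 1 lower. *Hmox1*, the heme oxygenase that frees iron from heme, stood at 64.7 ± 3.38 CPM in unstimulated WT, 172 ± 1.11 CPM in unstimulated 3xGrk-/-, 31.9 ± 1.12 CPM in LPS-stimulated WT and 368 ± 4.88 CPM in LPS-stimulated 3xGrk-/- cells (SD, n = 2). It was higher in 3xGrk-/- by 1.40 without LPS (edgeR adjusted p = 1.29e-107) and by 3.52 with LPS (edgeR adjusted p = 4.68e-19) on the log2 scale. *Blvrb*, a biliverdin reductase, was higher by 1.13 and 2.01 (edgeR adjusted p = 1.04e-54 and 8.43e-13). *Alas1*, which starts heme synthesis, was higher by 2.45 and 1.93. Its mean without LPS was 127 CPM in WT and 690.5 CPM in 3xGrk-/-. *Lrp1*, a receptor that takes up the heme carrier hemopexin among many ligands, was higher by 3.17 and 1.13, and its means without LPS were 74.0 CPM in WT and 672 CPM in 3xGrk-/-.

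Among 15 further uptake genes, 7 were tested in each stimulation, with 2 higher and 3 lower in 3xGrk-/- without LPS and 4 higher and 3 lower with LPS. *Slc39a14*, an importer of iron that is not bound to transferrin, was higher by 1.08 without (edgeR adjusted p = 3.81e-31) and 0.85 with LPS (edgeR adjusted p = 6.06e-07). *Mcoln1*, which releases iron from lysosomes, stood at 36.4 CPM in WT against 45.0 CPM in 3xGrk-/- without LPS, and at 25.8 against 54.8 CPM with LPS, called in both. *Trf*, which encodes transferrin, had means of 1.73 CPM in LPS-stimulated WT and 11.9 CPM in LPS-stimulated 3xGrk-/- cells (edgeR adjusted p = 2.05e-07), and no call without LPS (edgeR adjusted p = 0.412). *Hfe*, which takes part in sensing transferrin iron, had a log2 fold change of -0.97 without LPS (edgeR adjusted p = 8.21e-08) and of 0.41 with LPS (edgeR adjusted p = 0.0308).

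Of 17 genes for export and its hormonal control, 6 were tested without LPS, with 1 higher and 1 lower in 3xGrk-/-, and 9 with LPS, with 3 higher and 3 lower. *Hamp*, the gene of the hormone hepcidin, which closes ferroportin, had 0 or 1 counts in each unstimulated library, 21 and 31 counts in LPS-stimulated WT and 237 and 248 counts in LPS-stimulated 3xGrk-/- libraries. Its LPS-stimulated genotype groups did not overlap, with a log2 fold change of 3.25 (edgeR adjusted p = 9.9e-13); the near-identical *Hamp2* had 0 to 3 counts. *Cp*, the ferroxidase ceruloplasmin, was higher with LPS by 0.90 (edgeR adjusted p = 0.00148). Of the receptors in the pathway that induces hepcidin, *Bmpr1a* had log2 fold changes of -0.99 without and -1.46 with LPS (edgeR adjusted p = 0.000231 and 0.00108), and *Acvr1* had 0.63 without and -0.31 with LPS (edgeR adjusted p = 1.29e-05 and 0.0442).

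Storage and chaperone genes besides the members were mixed, with 3 higher and 1 lower of 7 tested without LPS and 2 higher and 2 lower of 7 with LPS. *Pcbp4*, of the family of RNA-binding proteins that includes iron chaperones, was higher without LPS by 1.16 on the log2 scale (edgeR adjusted p = 3e-14), with a value of 0.02 with LPS (edgeR adjusted p = 0.878). *Herc2*, the ligase that marks NCOA4 for degradation, had 0.12 without (edgeR adjusted p = 0.0387) and -0.80 with LPS (edgeR adjusted p = 4.99e-10). *Atg7*, needed for autophagy, had -0.04 without (edgeR adjusted p = 0.705) and was higher by 0.77 with LPS (edgeR adjusted p = 1.67e-05), and *Tax1bp1*, an autophagy receptor, was higher by 0.26 and 0.31 (edgeR adjusted p = 1.22e-06 and 0.00016). Among the 9 genes of iron and oxygen sensing, 4 of 8 tested were higher without LPS and 6 of 9 with LPS. *Hif1a*, the oxygen-regulated transcription factor, had means of 132 CPM in unstimulated WT, 145 CPM in unstimulated 3xGrk-/-, 137 CPM in LPS-stimulated WT and 343 CPM in LPS-stimulated 3xGrk-/- cells, a log2 difference between genotypes of 0.13 (edgeR adjusted p = 0.0397) and 1.33 (edgeR adjusted p = 2.34e-12). *Fbxl5*, the iron-sensing subunit that marks iron regulatory protein 2 for degradation, was higher by 0.24 (edgeR adjusted p = 0.00613) and 0.37 (edgeR adjusted p = 0.00335). The oxygen-sensing hydroxylases *Egln3* and *Egln1* stood with LPS at 1.47 (edgeR adjusted p = 3.21e-06) and 0.49 (edgeR adjusted p = 0.00121), against 0.13 and 0.17 without LPS (edgeR adjusted p = 0.66 and 0.162).

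Of 28 genes of mitochondrial iron and iron-sulfur clusters, all tested, 4 were higher and 1 lower without LPS, and 4 higher and 3 lower with LPS. *Slc25a37*, the mitochondrial iron importer mitoferrin-1, stood at 39.7 CPM in unstimulated WT, 55.7 CPM in unstimulated 3xGrk-/-, 28.2 CPM in LPS-stimulated WT and 130.4 CPM in LPS-stimulated 3xGrk-/- cells. It was higher in 3xGrk-/- by 0.50 without (edgeR adjusted p = 2.93e-07) and 2.22 with LPS (edgeR adjusted p = 9.33e-14) on the log2 scale. *Slc25a28*, which encodes mitoferrin-2, had 0.13 without (edgeR adjusted p = 0.477) and 0.70 with LPS (edgeR adjusted p = 0.000316). The cytosolic iron-sulfur factors *Bola2* and *Glrx3* went apart with LPS, at 0.70 (edgeR adjusted p = 0.000652) and -0.50 (edgeR adjusted p = 7.57e-05).

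**Figure D4:**
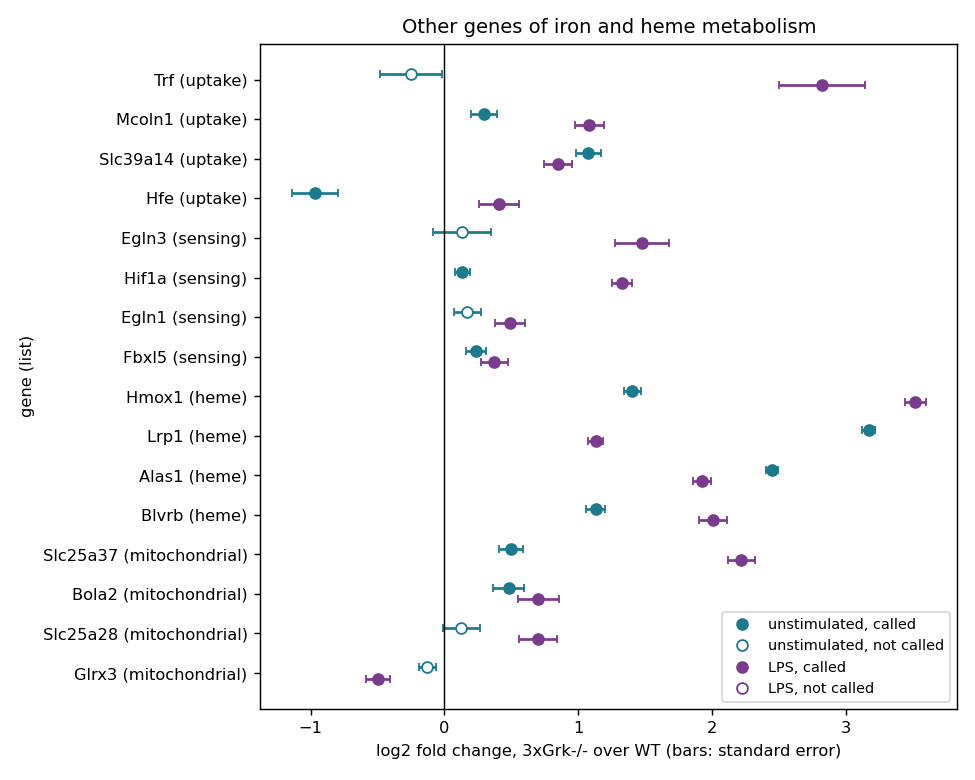
Log2 fold change of 3xGrk-/- over WT for the named genes of the heme, uptake, sensing and mitochondrial lists, without and with LPS. Bars give the standard error, and open circles mark values not called. The named genes of the export and of the storage and chaperone lists are not drawn. *Hmox1* lay at 1.40 and 3.52, and *Hfe* at -0.97 without and 0.41 with LPS.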

How the data were processed

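The authors deposited raw gene-level read counts, not normalized, in 1 table for unstimulated and 1 for LPS-stimulated cells. Per the study's methods, mRNA libraries were sequenced, aligned to GRCm38 with STAR and counted with featureCounts; the annotation release and strand setting are not given in the sources used here. Genotype, stimulation and replicate number came from the labels, and LPS dose and time from the study's methods.

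Of 47937 gene IDs, 47310 matched GENCODE M21 (version numbers ignored), which gave names, coordinates and exon lengths (the union of all annotated exons); 0.0468% of counts lay on the others. *Trf* and *Hfe2* are the M21 symbols used for transferrin and hemojuvelin.

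Genotypes were compared within each table, and LPS responses and the interaction over all 8 libraries, with edgeR 4.0.16 in R 4.3.3 (TMM, filterByExpr, quasi-likelihood test on all genes, Benjamini-Hochberg adjusted p under 0.05). Standard errors were obtained by dividing the unshrunk log2 fold change by the root of its F statistic. The scripts were tested on simulated data. Alternatives were DESeq2 1.42.0, RLE and library size scaling, other filters, the replicate block, fixed dispersions and leaving out each library. Python 3.11.15 computed the rest.

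The members and lists were chosen with earlier results of these data known. The rule for names took all 9 members, up to 4 called genes per other list by fold change at a mean of at least 5 CPM, the 5 genes most like each of 2 members and the most abundant genes of marker lists; *Itgax*, *Gm42418*, *Ftl1-ps1* and *Hamp2* were named after their values were seen.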

Additional observations from a re-analysis of the deposited data

Results flagged for a closer look

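For each of the 9 members the change upon LPS differed between the genotypes in the interaction test, with a higher value in 3xGrk-/- than in WT. The same test called 14 of 15 macrophage markers and 11 of 16 cell division genes higher, and 17 of 81 other iron genes higher and 9 lower. For the storage genes the interaction was 0.95 for *Fth1* (edgeR adjusted p = 9.1e-14), 0.97 for *Ftl1* (edgeR adjusted p = 1.31e-14) and 0.50 for *Ncoa4* (edgeR adjusted p = 0.000499) on the log2 scale. For the uptake genes it was 3.15 for *Tfrc* (edgeR adjusted p = 9.79e-16), 0.75 for *Slc11a2* (edgeR adjusted p = 0.000168) and 2.28 for *Steap3* (edgeR adjusted p = 0.00455), the last resting on 4 counts in LPS-stimulated WT and thus dependent on the prior count. For *Slc11a1* it was 0.38 (edgeR adjusted p = 0.0358), for the exporter *Slc40a1* 2.19 (edgeR adjusted p = 0.000389) and for *Lcn2* 1.89 (edgeR adjusted p = 1.89e-16). The *Slc40a1* value rests on the change of -2.01 upon LPS in WT. In 3xGrk-/- the change was 0.18 and not called, at 12 to 18 counts per library with and without LPS. The *Slc11a1* call was not made by DESeq2 (adjusted p = 0.132), was lost in 6 of the 8 fits without 1 library and at a fixed biological coefficient of variation of 0.1 (edgeR adjusted p = 0.329). The *Ncoa4* call was lost at 0.1 as well (edgeR adjusted p = 0.103), and at 0.4 the *Tfrc* call was the 1 left of the 9.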

How the results depend on the processing

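Of 697 values of the members under an alternative, 654 kept their direction and their side of the threshold, 36 lost a call, 2 gained one with the same sign and 5 changed sign, 1 of which (*Fth1* upon LPS in WT with library size alone) also gained a call. A fixed biological coefficient of variation of 0.4 left 448 genes called without LPS, 782 with LPS, 1110 for LPS in WT, 850 for LPS in 3xGrk-/- and 72 for the interaction, and 4, 5, 4, 1 and 1 of the members. The members called there were *Slc40a1*, *Tfrc*, *Slc11a1* and *Fth1* without LPS, *Slc11a1*, *Fth1*, *Ftl1*, *Lcn2* and *Steap3* with LPS, and *Tfrc* for the interaction. A coefficient of 0.1 left 2905 genes without LPS and 2161 for the interaction, and DESeq2 called 3086 and 2643. *Lcn2* without LPS (adjusted p = 0.269) and the interactions of *Slc11a1* (0.329) and *Ncoa4* (0.103) were not called at 0.1. With library size alone, *Fth1* upon LPS in WT was -0.15 and *Slc40a1* upon LPS in 3xGrk-/- was -0.032. Leaving out each library gave -0.46 to 0.15 for *Slc40a1* between genotypes with LPS, -0.011 to 0.14 for *Fth1* upon LPS in WT and -0.11 to 0.034 for *Ncoa4* upon LPS in 3xGrk-/-; none of these 3 was called with all libraries, and the causes were not tested. Removing the 20 most counted genes takes out *Fth1* and *Ftl1*.

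The labels do not say whether same-numbered libraries belong together, and replicate numbers were not used as pairs. Deviations of same-numbered libraries correlated at -0.133 to 0.201 between groups, which does not settle it. With a replicate block, 5292 genes were called without LPS, 5654 with LPS, 7438 for LPS in WT, 6793 for LPS in 3xGrk-/- and 3884 for the interaction, and 8, 8, 8, 7 and 9 members; no member's call changed. Depth limits *Steap3* and *Slc40a1*, which have 2 to 80 counts per library.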
